A study of Mus musculus with 24 samples.

Results

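The genes described here encode proteins that coat lipid droplets, fuse them, fill them or release fatty acids from them, together with proteins that take up and carry fatty acids in hepatocytes. They were chosen by symbol: Plin2, Plin4, Plin5, Cideb, Cidec, G0s2, Pnpla2, Cd36, Fabp1 and Fitm1, 10 genes among the 19804 genes with values in any group. Values were found for 9 of the 10, and Cd36, the fatty acid translocase of the plasma membrane, was not analysed here. Liver RNA came from 24 male C57Bl/6N mice in 6 groups of 4, each dosed by oral gavage over 4 days and fasted for 12 h at the end. PXR knockout mice (PXRKO, lacking the xenobiotic receptor encoded by Nr1i2) received atorvastatin at 10 mg/kg or the vehicle, distilled water. Wild-type mice (WT) received pregnenolone 16α-carbonitrile (PCN, an agonist of mouse PXR) at 100 mg/kg, atorvastatin at 10 mg/kg, pravastatin at 10 mg/kg, or the vehicle. The PXRKO animals, 20 weeks old, and the WT animals, 19 to 20 weeks old, were treated in different experiments, and the 2 factors cannot be told apart.

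A lipid droplet is a store of triglyceride and sterol ester enclosed by a single layer of phospholipid, and the proteins on that layer decide how readily lipases reach the store. In fasted liver, fatty acids released by adipose tissue are taken up beyond what is oxidised, so hepatocytes fill with droplets and perilipins accumulate on them. Many of these genes are known targets of PPAR alpha, the fatty acid receptor of the liver, which binds a direct repeat of the AGGTCA hexamer.

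Levels are normalised read counts, that is, counts of a gene divided by the size factor of its library, with a size factor of 1 standing for 12.3 M counts (M for mega). The vehicle and PCN libraries held 6.64 to 24.6 M and 8.16 to 16.3 M counts in listed genes, and these are the only groups for which nearly all genes were listed. The other groups were listed for genes selected on their own result, so a gene without a value in a group was not listed there, which says nothing of its level. Plin2 and Plin5 had values in 4 groups, Cidec and Pnpla2 in 3, and Plin4, Cideb, G0s2, Fabp1 and Fitm1 in 2. No member had values with pravastatin. Nr1i2 averaged 605 ± 53.0 in PXRKO vehicle livers and 1255 ± 135 in WT vehicle livers (SD, n = 4 each), so a reduced transcript was still counted in the knockout. In whole liver, fewer cells of a type and less RNA per cell cannot be told apart.

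The 9 genes lie on 6 chromosomes of build GRCm38, and the positions in the files equal the GENCODE M21 annotation for all 9. Plin4 (chromosome 17, 56100591 to 56109803) and Plin5 (chromosome 17, 56111601 to 56117596) are neighbours on the minus strand with 1797 bases between them. Plin2 is on the minus strand of chromosome 4 (86648386 to 86670060), Cidec on the minus strand of chromosome 6 (113424634 to 113435760) and Fabp1 on the plus strand of the same chromosome (71199827 to 71205023). Pnpla2 is on the plus strand of chromosome 7 (141455198 to 141460743) and G0s2 on the minus strand of chromosome 1 (193272161 to 193273217). Cideb (55754050 to 55758458, minus strand) and Fitm1 (55575617 to 55576954, plus strand) are on chromosome 14. Plin4, Cideb and G0s2 overlap Hdgfl2, Nop9 and Lamb3 on the opposite strand, and Fitm1 overlaps the antisense gene Gm15932. The strand setting of the counting is not given in the sources used here, so part of the reads of these 4 genes may belong to the partner.

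Promoter windows from RefSeq (GRCm38.p6, 250 bases before the start site to 50 after it) were found for all 9 genes, 11 windows in all. They were searched on both strands for AGGTCA, the nuclear receptor hexamer, for AGGNCA repeated directly with 1 base between (the arrangement bound by PPAR alpha), for the E-box CACGTG, and for TCACNCCAC, a sterol regulatory element. Over all 32851 windows of the table these were found in 16.3%, 0.381%, 7.15% and 1.24%. AGGTCA was found for 3 members (Plin2, Plin5 and Fabp1), the direct repeat for Fabp1, the E-box for Plin2 and the sterol element for none. The 4 windows below show Plin2 and Plin5, the perilipins called lower with PCN and with atorvastatin in WT livers, their relative Plin4 beside Plin5, and Fabp1, the carrier with the repeat. Capitals mark the motif letters, and each window is written 5′ to 3′ on the strand of its gene.
Plin2, chr4:86670010-86670309, minus strand: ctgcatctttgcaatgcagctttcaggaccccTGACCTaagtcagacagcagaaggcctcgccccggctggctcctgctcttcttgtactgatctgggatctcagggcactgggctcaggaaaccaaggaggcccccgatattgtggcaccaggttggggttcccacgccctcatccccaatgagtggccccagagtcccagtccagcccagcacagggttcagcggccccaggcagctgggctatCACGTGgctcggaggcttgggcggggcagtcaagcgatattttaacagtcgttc
Plin5, chr17:56117499-56117798, minus strand: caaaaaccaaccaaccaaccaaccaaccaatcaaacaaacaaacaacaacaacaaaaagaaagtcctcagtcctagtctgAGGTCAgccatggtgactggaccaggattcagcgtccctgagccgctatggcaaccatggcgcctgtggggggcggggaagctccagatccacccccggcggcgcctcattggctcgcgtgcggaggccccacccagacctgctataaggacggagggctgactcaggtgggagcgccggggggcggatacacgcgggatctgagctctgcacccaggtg
Plin4, chr17:56109733-56110032, minus strand: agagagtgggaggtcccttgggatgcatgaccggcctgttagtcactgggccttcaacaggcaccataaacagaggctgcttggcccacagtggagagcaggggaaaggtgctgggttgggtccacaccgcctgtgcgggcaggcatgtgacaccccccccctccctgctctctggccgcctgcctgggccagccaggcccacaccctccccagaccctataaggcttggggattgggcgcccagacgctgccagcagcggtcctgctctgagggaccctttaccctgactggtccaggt
Fabp1, chr6:71199629-71199928, plus strand: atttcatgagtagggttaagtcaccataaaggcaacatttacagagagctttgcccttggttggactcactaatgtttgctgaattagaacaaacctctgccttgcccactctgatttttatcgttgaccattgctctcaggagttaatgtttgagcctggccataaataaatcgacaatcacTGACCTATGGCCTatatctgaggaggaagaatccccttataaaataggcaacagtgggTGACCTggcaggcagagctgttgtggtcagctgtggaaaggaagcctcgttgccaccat
The Plin2 window holds the hexamer, as its reverse complement TGACCT, at -218 and the E-box at -4 from the start site. The Plin5 window shown holds AGGTCA at -170, and the Plin4 window holds none of the 4 motifs. Plin5 has 2 windows, and the one not shown holds AGGTCA at 13 from its own start site. In Fabp1 the reverse complement of the direct repeat begins at -67, overlapping 1 of the 2 TGACCT hexamers, the other lying at -9. A match of letters is a description of the window and was not tested for binding.

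**Figure D1:**
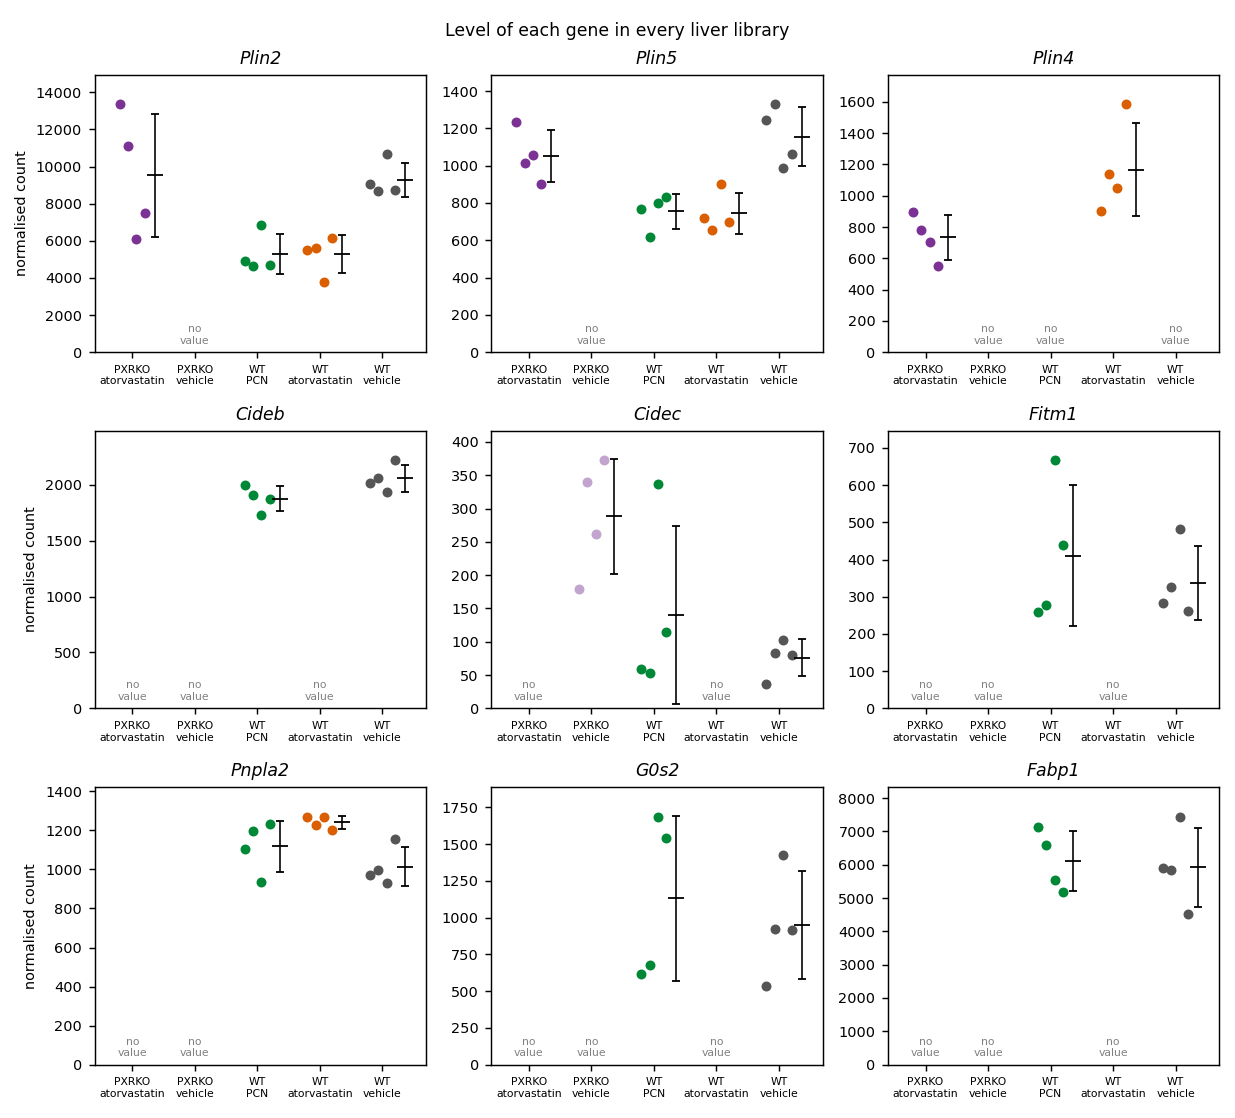
Normalised count (vertical axis) of each of 9 genes in every library of PXRKO atorvastatin, PXRKO vehicle, WT PCN, WT atorvastatin and WT vehicle livers. Points are libraries, bars are the mean ± SD of 4, and "no value" marks a group in which the gene was not listed. Plin2 and Plin5 lie lower with PCN (means 5274 and 755) and with atorvastatin in WT (5274 and 744) than with vehicle in WT (9288 and 1155).

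Plin2 encodes perilipin 2, the main droplet coat protein of the hepatocyte, and it fell with PCN. Its level was 4903, 4656, 6868 and 4669.6 in the 4 PCN libraries, against 9035, 8709, 10657 and 8751 in the 4 vehicle libraries. Every PCN library was below every vehicle library, and library 3 was the highest of each group. PCN livers averaged 5274 ± 1069 and vehicle livers 9288 ± 924 (SD, n = 4 each), a fold of 0.568, and edgeR's quasi-likelihood test gave a log2 fold of -0.81 (95% interval -1.10 to -0.53, adjusted p = 0.00634). Plin5, a perilipin of oxidative tissues that tethers droplets to mitochondria and restrains the lipase Pnpla2, fell as well. It stood at 768, 619.9, 798 and 833 in PCN libraries, against 1246, 1329, 986 and 1060.5 in vehicle libraries, and the groups did not overlap. The means were 755 ± 93.8 with PCN and 1155 ± 159 with vehicle (SD, n = 4 each), a log2 fold of -0.61 (95% interval -0.86 to -0.36, adjusted p = 0.0127, edgeR). These were 2 of the 8 members with values in this comparison, both lower, where 3.55% of the 12938 genes tested were called, 1.91% higher and 1.64% lower.

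The other 6 members did not pass the test with PCN. Cideb, a CIDE protein that in liver also serves the lipidation of very low density lipoprotein, had the tightest values. They were 1997, 1906, 1729 and 1873 in PCN libraries, against 2014, 2057, 1937 and 2217 in vehicle libraries, with a log2 fold of -0.13 (95% interval -0.29 to 0.03, adjusted p = 0.391, edgeR). The 2 groups overlapped only through PCN library 1. Pnpla2, the adipose triglyceride lipase that takes the first fatty acid off triglyceride, stood at 1104, 1197, 938 and 1235 in PCN libraries, against 973, 996, 932 and 1157 in vehicle libraries. The groups overlapped, and the log2 fold was 0.14 (95% interval -0.07 to 0.36, adjusted p = 0.472, edgeR). Fabp1, the abundant fatty acid binding protein of the hepatocyte cytosol, averaged 6112 ± 900.1 with PCN and 5925 ± 1190.2 with vehicle (SD, n = 4 each), and its log2 fold was 0.05 (95% interval -0.27 to 0.37, adjusted p = 0.832, edgeR). The intervals of these 3 genes exclude a fall of the size seen for Plin2.

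Cidec, G0s2 and Fitm1 varied most between livers of 1 group. Cidec encodes the CIDE protein that fuses droplets into large ones, and its level was 58.5, 53.1, 337 and 114 in PCN libraries, against 37.2, 82.7, 103 and 79.9 in vehicle libraries. PCN library 3 was 5.76 times the median of the other 3. The log2 fold with PCN was 0.86 (95% interval -0.27 to 1.99, adjusted p = 0.411, edgeR), and it was 0.04 without that library. G0s2, a small protein that inhibits Pnpla2, stood at 618, 676, 1686 and 1544 in PCN libraries, against 538, 922, 1428 and 916 in vehicle libraries. Fitm1, which helps package triglyceride into nascent droplets and is best known from muscle, stood at 259.7, 277, 666 and 439.8 in PCN libraries, against 282, 327, 481 and 261 in vehicle libraries. In both groups library 3 was the highest for Cidec, G0s2, Fitm1 and Plin2, while it was the lowest for Cideb and Pnpla2. Neither G0s2 (log2 fold 0.26, 95% interval -0.48 to 1.00, adjusted p = 0.698, edgeR) nor Fitm1 (log2 fold 0.30, 95% interval -0.31 to 0.90, adjusted p = 0.604, edgeR) passed the test, and without PCN library 3 their log2 folds were 0.01 and -0.02. Library 3 was also the shallowest of each group (8.16 M counts with PCN and 6.64 M with vehicle), and the part of depth was not tested. Library numbers are column positions in the table and do not pair animals.

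**Figure D2:**
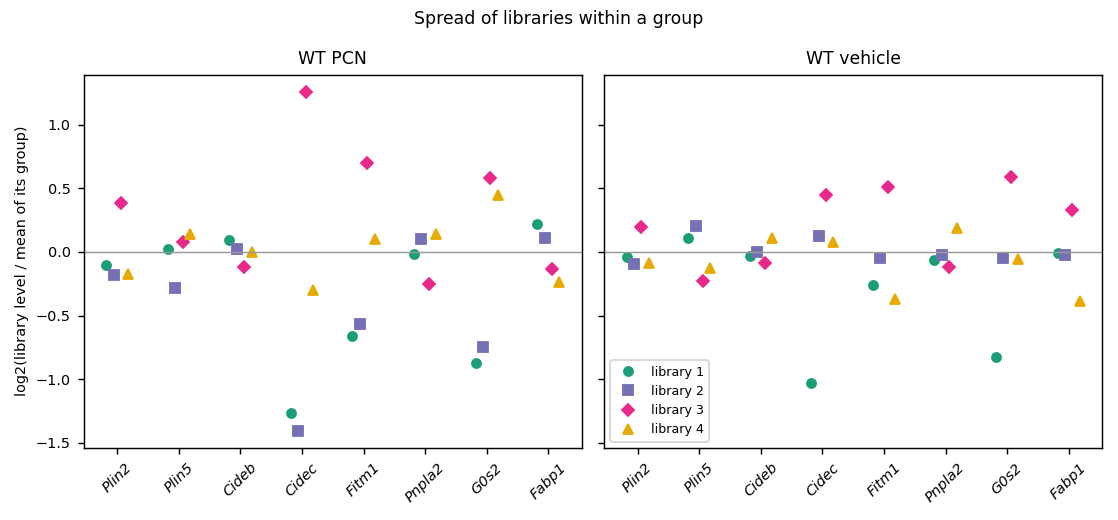
Log2 ratio of each library to the mean of its group (vertical axis) for 8 genes, in WT PCN livers at the left and WT vehicle livers at the right, with 1 marker shape per library. Library 3 of each group stands highest for Plin2, Cidec, Fitm1 and G0s2, and the spread is widest for Cidec with PCN (53.1 to 337 normalised counts).

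Per kilobase of exon, the level of the members in vehicle livers ran over a wide range. Fabp1 came first with 10715 ± 2152 normalised counts per kilobase, followed by Plin2 with 2645 ± 263, Cideb with 1382 ± 79.5 and G0s2 with 1092 ± 420 (SD, n = 4 each). Plin5 had 554 ± 76.3, Fitm1 348 ± 102, Pnpla2 336 ± 32.6 and Cidec 40.8 ± 14.9 normalised counts per kilobase (SD, n = 4 each). The libraries of Cideb and G0s2, of Plin5 and Fitm1, and of Fitm1 and Pnpla2 overlapped. The order of these neighbours is not fixed by the data. Those of G0s2 and Plin5 overlapped as well, but within each vehicle library G0s2 stood above Plin5. Fabp1 stood above Plin2, Plin2 above Cideb, and Pnpla2 above Cidec in every vehicle library.

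With atorvastatin in WT livers, Plin2 and Plin5 fell and Pnpla2 rose, by the authors' deposited table. Plin2 was 5522, 5602, 3807 and 6166 in atorvastatin libraries, all below the lowest vehicle library (8709). The means were 5274 ± 1019 with atorvastatin and 9288 ± 924 with vehicle (SD, n = 4 each), a fold of 0.568 (adjusted p = 4.1e-07 in the authors' deposited table). Plin5 was 720.0, 654, 903 and 700.1 in atorvastatin libraries, all below the lowest vehicle library (986). Its means were 744 ± 109 with atorvastatin and 1155 ± 159 with vehicle (SD, n = 4 each), a fold of 0.644 (adjusted p = 4.32e-05 in the authors' deposited table). With edgeR on the listed genes, where 5.69% of genes were called, the log2 folds were -0.82 (95% interval -1.11 to -0.52, adjusted p = 0.00484) for Plin2 and -0.64 (95% interval -0.90 to -0.38, adjusted p = 0.00954) for Plin5.

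Pnpla2 was 1271, 1228, 1267 and 1200.0 in atorvastatin libraries, against 973, 996, 932 and 1157 in vehicle libraries. All 4 atorvastatin libraries were above all 4 vehicle libraries, vehicle library 4 lying closest. The means were 1241 ± 33.8 with atorvastatin and 1015 ± 98.4 with vehicle (SD, n = 4 each), a fold of 1.22 (adjusted p = 0.0107 in the authors' deposited table). The call was lost with edgeR on the listed genes (log2 fold 0.29, 95% interval 0.12 to 0.46, adjusted p = 0.0555) and in 7 of its 8 fits without a library (adjusted p 0.0865 to 0.146), the exception being the fit without vehicle library 4 (adjusted p = 0.0191). These 3 members were the ones listed, and 9.57% of the 13925 genes implied by the authors' adjusted p were called, 5.47% higher and 4.1% lower. The table lists 1769 genes up to an adjusted p of 0.0999, so a listed member had to be near the threshold or past it, and the count is no support for the group of genes.

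Atorvastatin and PCN were compared directly in WT livers for the 3 members with values in both groups, at doses that differ (10 and 100 mg/kg). Plin2 averaged 5274 with each, and the log2 fold of atorvastatin over PCN was 0.00 (95% interval -0.34 to 0.35, adjusted p = 0.999, edgeR with a borrowed dispersion trend). For Plin5 the log2 fold was -0.02 (95% interval -0.28 to 0.23, adjusted p = 0.926), and for Pnpla2 it was 0.15 (95% interval -0.04 to 0.34, adjusted p = 0.398). None of the 3 was called, where 2.37% of the 2324 genes fitted were called, at 0 members with an unadjusted p under 0.05 and 0 called by limma-voom. The 2324 genes had values with atorvastatin because they were near or past the threshold in an atorvastatin comparison. The share called is therefore over a selected set, which the 3 members entered in the same way. The intervals bound any difference and do not show that the compounds act alike. Both comparisons with vehicle use the same 4 vehicle libraries.

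Pravastatin, given at the dose of atorvastatin, called no member in the authors' deposited table, where 0.191% of genes were called. No member stood among the 929 genes listed for pravastatin, whose unadjusted p reached 0.0627, so no level can be given and neither statin could be set against the other for these genes. Atorvastatin in PXRKO livers likewise called no member against PXRKO vehicle, where 0.105% of genes were called, and no member stood among the 539 genes listed there, whose unadjusted p reached 0.0306. edgeR on these listed genes called 2 genes with pravastatin and 0 with atorvastatin in PXRKO livers, none of them a member.

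**Figure D3:**
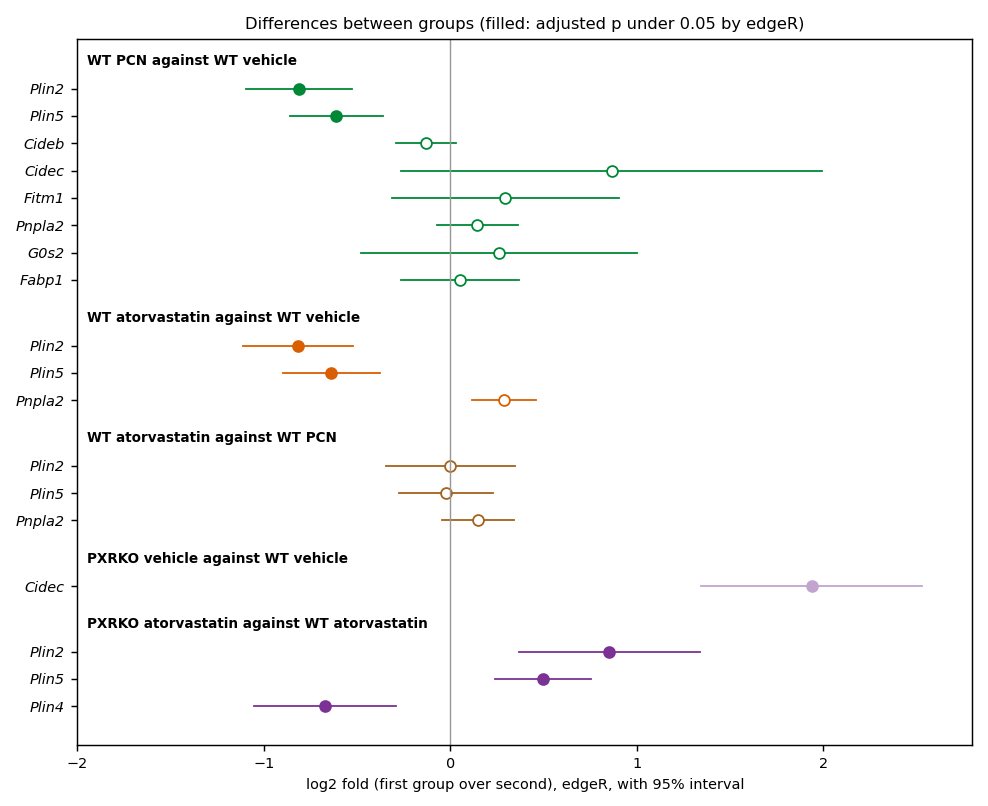
Log2 fold (horizontal axis) with its 95% interval for each member in each comparison in which it had values, by edgeR; the fit is on the listed genes where a comparison lists selected genes. Filled points have an adjusted p under 0.05. Plin2 and Plin5 lie below 0 with PCN and with atorvastatin in WT, near 0 between atorvastatin and PCN, and above 0 in PXRKO against WT under atorvastatin, where Plin4 lies below 0.

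Under atorvastatin, PXRKO livers had more Plin2 and Plin5 and less Plin4 than WT livers. Plin2 was 13357.5, 11133, 6122 and 7524 in PXRKO atorvastatin libraries, against 5522, 5602, 3807 and 6166 in WT atorvastatin libraries. PXRKO library 3 lay just under the highest WT library, so the groups overlapped, and the PXRKO livers were the more spread (9534 ± 3309.6 in PXRKO and 5274 ± 1019 in WT, SD, n = 4 each). The fold was 1.81 (adjusted p = 0.0352 in the authors' deposited table). Plin5 was 1233, 1013, 1056 and 899.9 in PXRKO atorvastatin libraries, against 720.0, 654, 903 and 700.1 in WT atorvastatin libraries. Its fold was 1.41 (1050.5 ± 138 in PXRKO and 744 ± 109 in WT, SD, n = 4 each, adjusted p = 0.00362 in the authors' deposited table). For Plin5 WT library 3 lay just above the lowest PXRKO library, so the groups overlapped as well.

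Plin4, a perilipin of nascent droplets best known from adipose tissue and muscle, was lower in PXRKO livers, and its gene is the neighbour of Plin5. It was 898.9, 779, 704 and 550.5 in PXRKO atorvastatin libraries, against 899.9, 1136, 1048 and 1585 in WT atorvastatin libraries. The highest PXRKO library reached the level of the lowest WT library. The means were 733 ± 146 in PXRKO and 1167 ± 295 in WT (SD, n = 4 each), a fold of 0.628 (adjusted p = 0.0059 in the authors' deposited table). So 2 members were called higher and 1 lower, where 9.35% of the 14694 genes were called, 4.25% higher and 5.1% lower, and the table lists only called genes. With edgeR on the listed genes, which called 6.47% of genes, all 3 stayed called (adjusted p = 0.0414 for Plin2, 0.0275 for Plin5 and 0.0422 for Plin4), but close to the threshold. Leaving out a library ended the edgeR call of Plin2 for every library except PXRKO atorvastatin 3 and 4 (adjusted p = 0.0584 to 0.116), that of Plin4 for every library except WT atorvastatin 1 and PXRKO atorvastatin 1 (0.0682 to 0.119), and that of Plin5 for WT atorvastatin 1, 2 and 4 and PXRKO atorvastatin 1 and 3 (0.0667 to 0.0771). The direction held in each of these fits.

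PXRKO atorvastatin livers were also set against WT vehicle livers, which differ in genotype, treatment and experiment. Plin2 and Plin5 had values in PXRKO atorvastatin livers because they were called higher there than in WT atorvastatin livers. They were thus selected on a high level in this group, and a p-value here does not show that levels are alike. Plin2 averaged 9534 ± 3309.6 in PXRKO atorvastatin and 9288 ± 924 in WT vehicle livers (SD, n = 4 each), with an exact two-sided permutation p of 1 over the 70 splits, the smallest possible being 0.0286. Plin5 averaged 1050.5 ± 138 in PXRKO atorvastatin and 1155 ± 159 in WT vehicle livers (SD, n = 4 each; exact permutation p = 0.343). The levels of both genes in PXRKO vehicle livers were not listed, so whether the effect of atorvastatin differs between genotypes could not be tested: of 357 genes with values in all 4 groups, 0 were members.

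In vehicle livers, Cidec was the member called between genotypes. It was 179, 340.1, 262 and 372 in PXRKO vehicle libraries, against 37.2, 82.7, 103 and 79.9 in WT vehicle libraries. The lowest PXRKO library was above the highest WT library. The means were 288 ± 86.2 in PXRKO and 75.7 ± 27.7 in WT (SD, n = 4 each), a fold of 3.81 (adjusted p = 9.82e-10 in the authors' deposited table), where 2.08% of genes were called and 1.17% were called higher. With edgeR on the listed genes, which called 0.71% of genes, the log2 fold was 1.94 (95% interval 1.35 to 2.53, adjusted p = 0.00707). Cidec is abundant in adipocytes, so adipocyte markers are given beside it: of 8 such genes Cfd was called higher (13.2 ± 4.89 in PXRKO and 2.81 ± 1.83 in WT) and Adrb3 lower (33.3 ± 6.73 in PXRKO and 128 ± 43.9 in WT; SD, n = 4 each; authors' deposited table), and the other 6 were not called. Of 8 hepatocyte markers, Alb (fold 0.691) and Ttr (fold 0.768) were called lower in PXRKO vehicle livers by the authors' deposited table. Their part in the Cidec result was not tested.

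The list of droplet coat and assembly genes holds 20 genes, Plin2 and Plin5 and other members among them. With PCN, 3 of 15 tested genes of the list fell and 0 rose (median log2 fold -0.16, against -0.01 over all genes tested), where 3.55% of all genes were called and 1.64% were called lower. As 2 of the 3 are Plin2 and Plin5, the list adds 1 gene, Lpin2, a phosphatidate phosphatase of triglyceride synthesis, with 7860 ± 505 in PCN livers and 10032 ± 659 in vehicle livers (SD, n = 4 each; adjusted p = 0.041, edgeR). Lpin2 lost its call when any library other than PCN library 3 was left out (adjusted p 0.0401 to 0.118 by edgeR over the 8 fits). With atorvastatin in WT livers, where 9.57% of all genes were called, 1 of the 20 was called higher and 3 lower in the authors' deposited table: besides the perilipins, Dgat2, which makes triglyceride, was higher (fold 1.25) and Agpat2, which makes phosphatidate, was lower (fold 0.846). Both lost their calls with edgeR on the listed genes (adjusted p = 0.0805 and 0.11) and in 7 of its 8 fits without a library. Gpat4, which starts glycerolipid synthesis, was called higher in PXRKO vehicle livers (4412 ± 334) than in WT vehicle livers (3537 ± 160, SD, n = 4 each; authors' deposited table), where 2.08% of all genes were called. That call was lost with edgeR on the listed genes (adjusted p = 0.116) and in all 8 of its fits without a library. Under atorvastatin 3 of the 20 were called higher and 3 lower in PXRKO livers than in WT livers, where 9.35% of all genes were called. edgeR on the listed genes called 6 there too, and 2 to 4 when a library was left out, Dgat2 and Gpat4 being the genes called in all 8 fits. Lpin1, a fasting-induced phosphatidate phosphatase, was at 0.472 of the WT level and Gpat4 at 1.42 times it, by the same counts.

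Among 17 tested genes of lipolysis and its regulators, 1 rose and 1 fell with PCN (median log2 fold 0.07), where 3.55% of all genes were called. Lipe, hormone-sensitive lipase, rose to 380 ± 44.4 with PCN, against 272 ± 20.6 with vehicle (SD, n = 4 each; adjusted p = 0.0227, edgeR). Angptl4, a fasting-induced inhibitor of lipoprotein lipase, fell to 1504 ± 77.5 with PCN, against 2898 ± 164 with vehicle (SD, n = 4 each; adjusted p = 9.83e-05, edgeR). The call of Lipe was lost without vehicle library 1, 2 or 4 or PCN library 2 or 4, when 1 gene of the list was called. With atorvastatin in WT livers, 4 of 18 list genes were called higher and 2 lower in the authors' deposited table, against 9.57% of all genes called. edgeR on the listed genes called 5 of the 6, and 2 to 4 when a library was left out, with Ces1d and Angptl4 called in all 8 fits and Lipe in 0. Ces1d, a triglyceride hydrolase of the endoplasmic reticulum, was at 2.43 times the vehicle level, Lipe at 1.33 times, Angptl4 at 0.632 and Lpl, lipoprotein lipase, at 0.541. PXRKO vehicle livers had 2 list genes called higher and 1 lower against WT vehicle livers in the authors' deposited table: Mgll, which cleaves monoglyceride (fold 1.28), Mttp, which loads lipoproteins with triglyceride (fold 1.20), and Angptl4 (fold 0.807), against 2.08% of all genes called. edgeR on the listed genes called 0 of them, with or without a library left out. Under atorvastatin, PXRKO livers had Lpl at 2.17 times, Mttp at 1.26 times, Ces1d at 0.538 and Lipg, endothelial lipase, at 0.373 of the WT level (2 called higher and 2 lower, authors' deposited table, against 9.35% of all genes called). edgeR on the listed genes called Lpl and Lipg, and 1 to 4 genes when a library was left out. Reads can be shared between the closely related Ces1 genes, so the values of Ces1d are uncertain.

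Genes of fatty acid uptake and binding showed no call with PCN, 0 of 17 tested by edgeR, where 3.55% of all genes were called. DESeq2 also called 0, and edgeR gave 0 at an unadjusted p under 0.05 (median log2 fold -0.05). With atorvastatin in WT livers, 2 of 18 list genes were called higher and 1 lower in the authors' deposited table, against 9.57% of all genes called. Acsl3, an acyl-CoA synthetase found on droplets, stood at 355 ± 53.2 with atorvastatin and 194 ± 19.6 with vehicle (SD, n = 4 each), its relative Acsl4 at 1.27 times the vehicle level, and the transporter Slc27a4 at 0.85 of it. Slc27a4 lost its call with edgeR on the listed genes (adjusted p = 0.103) and in all 8 of its fits without a library. In PXRKO livers under atorvastatin, Acsl3 stood at 185 ± 24.8 against 355 ± 53.2 in WT livers (SD, n = 4 each). The authors' deposited table called 3 list genes lower there, Acsl3, the lipoprotein receptor Vldlr (fold 0.475) and the bile acid and fatty acid synthetase Slc27a5 (fold 0.777), and 1 higher, the sterol carrier Scp2 (fold 1.24), against 9.35% of all genes called. Scp2 lost its call with edgeR on the listed genes (adjusted p = 0.17) and in all 8 of its fits without a library, and Slc27a5 in 7 of the 8.

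PPAR alpha targets outside the droplet were set beside the perilipins. Many of these genes oxidise fatty acids in mitochondria, peroxisomes and microsomes, and others, such as Fgf21, have other roles. With PCN 5 of 22 tested fell and 0 rose (median log2 fold -0.22), where 3.55% of all genes were called and 1.64% were called lower. Fgf21, a fasting hormone, stood at 31.3 ± 11.8 with PCN and 98.1 ± 27.9 with vehicle, and Ehhadh, a peroxisomal oxidation enzyme, at 5399 ± 1375 with PCN and 10018 ± 2720.2 with vehicle (SD, n = 4 each). The count was 1 without vehicle library 1 or PCN library 4 and 2 without vehicle library 3 or PCN library 2, and 8 with DESeq2. Fgf21 was called in all 8 fits without a library and Ehhadh in 2. With atorvastatin in WT livers, 11 of 24 list genes were called lower and 1 higher in the authors' deposited table, where 9.57% of all genes were called and 4.1% were called lower. edgeR on the listed genes called 7 of the 12, and 5 to 8 when a library was left out, with Ehhadh, Cyp4a14, Cpt2, Acot1 and Acot3 called in all 8 fits. Ehhadh stood at 3538 ± 468 with atorvastatin, against 10018 ± 2720.2 with vehicle (SD, n = 4 each). Cyp4a14, a fatty acid hydroxylase, stood at 15800 ± 3414.5 with atorvastatin, against 34375 ± 8702 with vehicle (SD, n = 4 each). Acot3, an acyl-CoA thioesterase, was the gene called higher (fold 3.90). In PXRKO livers under atorvastatin, 10 of 24 were called higher and 1 lower than in WT livers under atorvastatin (authors' deposited table, against 9.35% of all genes called), with Ehhadh at 3.80 times, Cyp4a31 at 2.67 times, Acot1 at 2.60 times and Acot3 at 0.166 of the WT level. edgeR on the listed genes called 9 of the 11, and 6 to 10 when a library was left out. PXRKO vehicle livers had 2 of 24 called higher than WT vehicle livers by the authors' deposited table, Cpt1a, an enzyme of mitochondrial fatty acid entry, among them (fold 1.38), against 2.08% of all genes called, and edgeR on the listed genes called 0 of the list. Reads can be split within the Cyp4a and Acot families, which have near-identical members.

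Among 16 regulators of droplet genes, 2 rose and 0 fell with PCN (median log2 fold 0.15), where 3.55% of all genes were called and 1.91% were called higher. Ppargc1b, a coactivator of PPAR alpha, stood at 427 ± 91.9 with PCN and 202 ± 40.8 with vehicle, and Srebf1, the regulator of lipogenesis, at 2309 ± 787 with PCN and 1219 ± 188 with vehicle (SD, n = 4 each; adjusted p = 0.0067 and 0.0252, edgeR). Srebf1 lost its call, leaving 1, without vehicle library 1, 3 or 4 or PCN library 2. With atorvastatin in WT livers 4 of 16 were called higher in the authors' deposited table, Srebf1 (fold 2.40), Ppargc1b (fold 2.01), the xenobiotic receptor Nr1i3 (fold 1.45) and Ppara itself (fold 1.24), and 0 were called lower, against 9.57% of all genes called and 5.47% called higher. Ppara lost its call with edgeR on the listed genes (adjusted p = 0.0759) and in all 8 of its fits without a library, and the other 3 were called in all 8. In PXRKO livers 0 were called higher and, besides Nr1i2, the genes called lower were Nr1i3 with vehicle (fold 0.561) and Nr1i3, Srebf1 and Cebpb under atorvastatin (folds 0.399, 0.428 and 0.664), against 2.08% of all genes called with vehicle and 9.35% under atorvastatin. Cebpb lost its call with edgeR on the listed genes (adjusted p = 0.0811) and in all 8 of its fits without a library.

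**Figure D4:**
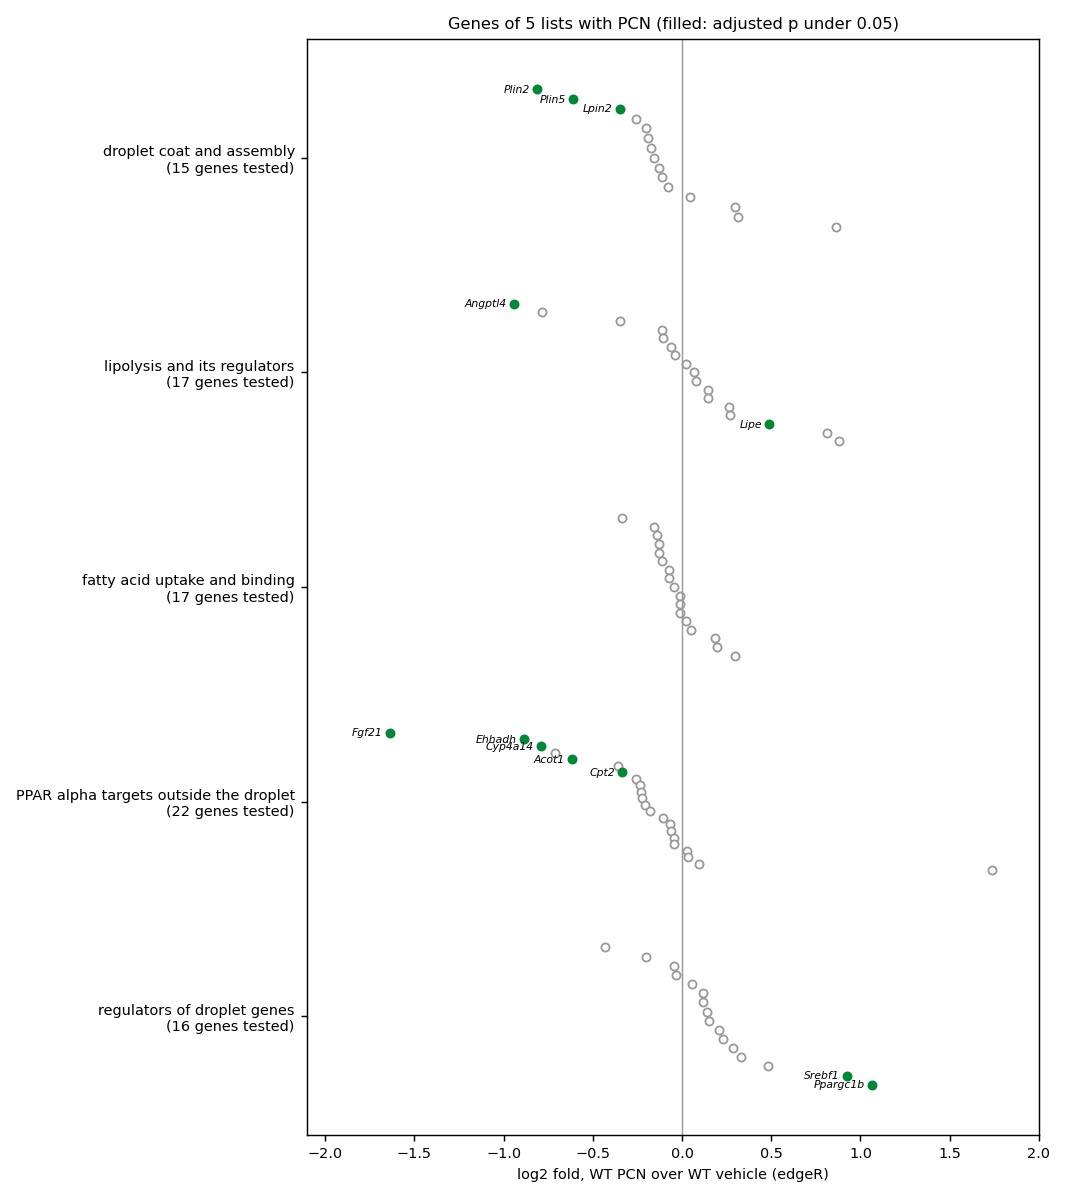
Log2 fold of PCN over vehicle in WT livers (horizontal axis) for the tested genes of 5 lists, 1 point per gene, filled and named where the adjusted p by edgeR was under 0.05. Filled points lie below 0 in the coat list (3 genes) and the PPAR alpha target list (5 genes), above 0 among the regulators (2 genes), on each side in the lipolysis list, and there are 0 among uptake genes.

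Cell type markers were read beside the PCN results. The summed level of 8 hepatocyte markers was 969370 to 1026970 in PCN livers and 1046790 to 1172720 in vehicle livers, 1 of the 8 being called, Tat (lower). Adipocyte markers (6 of 8 listed) summed to 85.7 to 148 in PCN livers and 112 to 203 in vehicle livers. Only 2 of them, Fabp4 and Adrb3, were tested, and 0 were called. Muscle markers (2 of 7 listed) summed to 14.0 at most in PCN livers and 5.23 at most in vehicle livers. Kupffer cell markers summed to 1213 to 2722 in PCN livers and 2018 to 3656 in vehicle livers. Endothelial markers summed to 4379 to 6151 with PCN and 4950.0 to 5679.7 with vehicle, and cholangiocyte markers to 218 to 302 with PCN and 191 to 345 with vehicle, with 0 of each of these lists called. Over all genes tested 3.55% were called. Median log2 folds were -0.17 for hepatocyte, -0.44 for Kupffer cell, 0.05 for endothelial and 0.10 for cholangiocyte markers, against -0.01 over all genes tested. The 2 adipocyte markers tested had a median of -0.63, and 1 of them had an unadjusted p under 0.05 by edgeR. No listed marker was at 0 in all libraries of a group. Their part in the fall of Plin2 and Plin5 was not tested.

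The genes whose levels followed Plin2 most closely were looked for over the 16 libraries in which it had values, among 1263 other genes with values in the same libraries and a mean of at least 50. These genes had been listed because they were near or past the threshold in an atorvastatin comparison, so likeness is judged within a selected set. Pearson's r of log2(normalised count + 1) was highest for Sco2 (0.94), which assembles cytochrome oxidase, and for Rtf2 (0.93), Tubb2a (0.92), Hsdl2 (0.91) and Tlcd4 (0.91). Sco2 stood at 298 ± 88.2 in PXRKO atorvastatin, 144 ± 28.5 in PCN, 134 ± 13.0 in WT atorvastatin and 259 ± 27.2 in WT vehicle livers (SD, n = 4 each). Tubb2a, a beta tubulin, stood at 361 ± 142 in PXRKO atorvastatin, 141 ± 37.6 in PCN, 129 ± 30.7 in WT atorvastatin and 368 ± 38.9 in WT vehicle livers (SD, n = 4 each). Predicted gene models were left out of this order, though the 1263 genes include any that had values. Plin5 came 175th in the order, with an r of 0.69. The values share libraries and size factors, and r is given as a description.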

How the data were processed

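Total liver RNA of 24 mice was sequenced with a stranded total RNA kit, per the labels' protocols. The authors deposited, as 15 tables of group pairs (12 used here), raw read counts per gene made with HTSeq, and DESeq2 statistics, on build GRCm38, per the submitters' processing notes. Their versions, the aligner and the annotation were not given in the sources used here. Mean signal (baseMean), log2 fold, p-value and adjusted p-value are the authors' own deposited columns, per the file headers. Their log2 fold is moderated in tables cut at an adjusted p and was not printed.

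Groups of the 96 count columns (0 left unused) come from the pair each table is named for and from identical counts in tables that share a group; library numbers are column order. Vehicle and PCN libraries held 6.64 to 24.6 M counts; depth elsewhere is known as a size factor (0.634 to 1.82). Size factors were recovered from baseMean by least squares. They gave back the authors' baseMean with a median error of at most 0.00226%. In simulated tables with known size factors the largest error was 0.134%. Tables were set on 1 scale through shared groups, whose ratios varied by at most 0.424%. Levels in different groups thus join tables that were normalised separately, and folds are ratios of group means on that scale.

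PCN against vehicle was tested with edgeR 4.0.16 (TMM, filterByExpr, quasi-likelihood F test, Benjamini-Hochberg over 12938 genes, threshold 0.05). For the other comparisons with vehicle and between genotypes the authors' adjusted p is the main test, since those tables list selected genes. Beside it stands edgeR on the listed genes, with recovered size factors and the dispersion trend and prior (5.84 degrees of freedom) of the vehicle and PCN table, adjusted over the number of genes the authors' adjusted p implies. Atorvastatin against PCN used that fit over genes listed in both groups. Both fits were tested on counts simulated for the vehicle and PCN libraries over all genes fitted there. Lists of selected genes, on which the second fit was used, were not simulated. P-values measure the spread between 4 animals a group. Alternatives were DESeq2 1.42.0, DESeq2 size factors, no filter, limma-voom (limma 3.58.1), each library left out, other scaling and medians.

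The members and lists were chosen with earlier results of these data known. All 10 members are named, up to 4 called genes per list with the largest change, and the 5 genes most like Plin2. Promoter windows are from RefSeq (GRCm38.p6). The other software was matplotlib 3.10.9, pandas 2.3.3, numpy 2.4.6 and Python 3.11.15, and R 4.3.3. Cd36 was not analysed here. The values of a gene of the PPAR alpha list are not reported here.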

Additional observations from a re-analysis of the deposited data

Results flagged for a closer look

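Plin2 was the gene for which single libraries stood apart from the other 3 of their group. In PCN livers the highest library had 6868 normalised counts, far above the other 3, which lay between 4656 and 4903. In vehicle livers the highest library had 10657, above the other 3 at 8709 to 9035. Of 24 sets of 4 libraries examined, 2 showed such a gap, and chance gives it in about 1 set in 20. The fold of PCN over vehicle was 0.511 without the PCN library and 0.597 without the vehicle library, against 0.568 with all 8.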

How the results depend on the processing

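Plin2 and Plin5 kept their calls with PCN in all 11 alternatives, and with atorvastatin in WT livers in edgeR on the listed genes and in all 8 fits that leave out a library; Cidec kept its call in PXRKO vehicle livers in the same 9. Leaving out a library moved the number of members called in PXRKO against WT livers under atorvastatin from 3 to between 0 and 2. Fewer samples entered each of these fits, and the part of sample number was not tested. Of the single tests under alternatives 25 lost their call and 153 did not change side, and no direction of a called member reversed. All 177 alternative folds stayed within the spread between libraries. That spread includes the library left out, so a fold without a library could hardly leave it. The Cidec fold of PCN over vehicle, 1.86 with all libraries, still ran from 0.995 to 2.24 with a library left out. With PCN 459 genes were called in all, 761 with DESeq2 and 223 to 480 with a library left out. edgeR on the listed genes called 792 with atorvastatin in WT (the authors 1333), 2 with pravastatin (28) and 105 in PXRKO vehicle (307), and limma-voom called 23 between atorvastatin and PCN (edgeR 55). For the lists (alternatives added after seeing the data) the same fit called, against the authors, 2 against 4 coat genes and 7 against 12 PPAR alpha targets with atorvastatin in WT, 1 against 2 coat genes, 0 against 3 lipolysis genes and 0 against 2 PPAR alpha targets in PXRKO vehicle, 2 against 4 lipolysis genes in PXRKO under atorvastatin, and 3 against 4 regulators with atorvastatin in WT. The cause was not tested. The planned interaction and the comparison of the statins could not be fitted for any member. Each mouse belonged to a single group, so there were no pairs to analyse. The columns also carry no number that ties a library to an animal. Members not listed in a table have no level there, so depth limits are known only for PCN and vehicle.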

Other observations

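Lrat, which esterifies retinol for storage in the droplets of stellate cells, was the stellate cell marker called in WT livers. It stood at 389 ± 57.5 with PCN and 243 ± 13.1 with vehicle (SD, n = 4 each; fold 1.60, adjusted p = 0.00634, edgeR), and the groups did not overlap. With atorvastatin it stood at 366 ± 119 (SD, n = 4; adjusted p = 0.0387 in the authors' deposited table), and there the groups overlapped. The other 6 stellate cell markers were not called, where 3.55% of all genes were called with PCN and 9.57% with atorvastatin in WT livers. The 7 markers summed to 3190.5 to 4602 in PCN livers and 3223 to 3989 in vehicle livers. Of 8 liver endothelial markers, the authors' deposited tables called Kdr higher in PXRKO vehicle livers than in WT vehicle livers (fold 1.30), where 2.08% of all genes were called. They called Lyve1 higher in PXRKO than in WT livers under atorvastatin (fold 1.77), where 9.35% of all genes were called. Under atorvastatin they also called the hepatocyte marker Ttr (fold 0.830) and the adipocyte marker Adrb3 (fold 0.456) lower in PXRKO than in WT livers.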
